A study of Mus musculus with 7 samples.

Results

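The 10 genes described here, Myh6, Myl7, Myl4, Nppa, Sln, Tnni3, Tnnt2, Actc1, Pln and Casq2, are genes of atrial and cardiac muscle, taken by symbol from the 21878 genes of the deposited count table and of the deposited FPKM table (fragments scaled by gene length and depth). All 10 were found in both tables. They were picked because their levels had already been seen to differ strongly between single libraries of these data, so their levels, and their difference between the groups, are a description and carry no test. The tissue was abdominal aorta from 8-week-old C57BL/6 males given Ang II (angiotensin II, a peptide that raises blood pressure and is used to provoke aneurysm) over as much as 28 days. There were 7 RNA-seq libraries, of which 4 were labelled ApoE-/-Nur77-/-, here DKO 1 to DKO 4, and 3 were labelled ApoE-/-, here ApoE 1 to ApoE 3. Both groups therefore lack, per their labels, the apolipoprotein E whose loss raises plasma cholesterol, and the DKO group also lacks the nuclear receptor Nur77, encoded by Nr4a1. Neither the deleted exons nor the number of mice behind a library is stated.

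Heart muscle contracts through sarcomeres, in which myosin heavy chains and their light chains pull on actin filaments under the control of the troponin complex. Atrial cardiomyocytes use their own light chain isoforms, and they store and release atrial natriuretic peptide, a hormone that lowers blood volume and pressure. The calcium that triggers each beat is held in the sarcoplasmic reticulum and taken back by a pump that small membrane proteins restrain. Heart muscle is not part of the wall of the abdominal aorta, whose muscle layer is smooth muscle.

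Both of the 2 targeted genes were read in every library. As the deleted exons are not stated, reads per gene neither bear out nor contradict the labels, and DKO and ApoE name libraries by label only. Nr4a1 was read at 46.2, 57.0, 90.1 and 92.7 CPM (counts scaled to library size) in DKO 1 to DKO 4, against 193, 56.4 and 111 CPM in ApoE 1 to ApoE 3. Apoe was read at 34.7, 18.3, 33.8 and 28.1 CPM in DKO 1 to DKO 4, against 233, 250.3 and 184 CPM in ApoE 1 to ApoE 3. The groups thus did not overlap for Apoe, which both lack per their labels, and the reason was not tested. For Nr4a1, ApoE 2 lay inside the DKO range. Library totals ran between 19295287 and 21727192 counts, and a count of 0 allows up to 0.133 to 0.164 CPM depending on the library. Smooth muscle genes marked all 7 libraries as vessel wall, with the myosin gene Myh11 between 1779 and 6100 CPM. ApoE 2 and ApoE 3 stood apart from the other 5 libraries in the cardiac genes, and results are therefore also given without them.

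Sequence upstream of the start was at hand for 9 of the 10 genes, in 10 windows of 250 bases from RefSeq on GRCm38.p6 (Tnnt2 has 2 windows). The 4 windows shown are those of Myl7 and Nppa, whose reads were close to 0 in several libraries, and of Actc1 and Casq2, which were read in every library. Each is written 5′ to 3′ toward the start, and capitals mark a CArG box (bound by serum response factor), a MEF2 site, a GATA site (AGATAA or TGATAA) or a TATAAA.

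Myl7 (chr11:5898783-5899032, - strand): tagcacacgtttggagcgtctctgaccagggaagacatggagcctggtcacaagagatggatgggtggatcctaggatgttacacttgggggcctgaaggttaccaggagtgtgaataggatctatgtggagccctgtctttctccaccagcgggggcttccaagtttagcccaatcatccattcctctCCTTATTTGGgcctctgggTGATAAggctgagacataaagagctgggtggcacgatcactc

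Nppa (chr4:148000472-148000721, + strand): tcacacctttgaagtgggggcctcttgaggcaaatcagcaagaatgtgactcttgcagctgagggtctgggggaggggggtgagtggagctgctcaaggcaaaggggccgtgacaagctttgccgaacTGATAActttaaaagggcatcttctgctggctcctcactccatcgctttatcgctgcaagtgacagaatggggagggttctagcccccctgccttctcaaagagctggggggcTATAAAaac

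Actc1 (chr2:114052876-114053125, - strand): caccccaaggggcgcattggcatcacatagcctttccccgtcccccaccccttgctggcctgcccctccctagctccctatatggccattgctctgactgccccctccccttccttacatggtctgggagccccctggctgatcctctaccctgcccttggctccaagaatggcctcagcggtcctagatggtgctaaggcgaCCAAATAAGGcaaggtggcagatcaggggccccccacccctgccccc

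Casq2 (chr3:102086165-102086414, + strand): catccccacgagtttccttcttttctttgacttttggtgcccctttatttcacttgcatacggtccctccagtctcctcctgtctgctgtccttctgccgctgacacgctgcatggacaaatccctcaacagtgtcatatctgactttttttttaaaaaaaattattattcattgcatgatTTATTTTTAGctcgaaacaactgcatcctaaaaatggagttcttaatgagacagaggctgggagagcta

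The Myl7 window held a CArG box at bases 61 to 52 before the start, and the Actc1 window held the same letters on the other strand at bases 47 to 38. CArG boxes were found in 2 of the 10 windows, against 1.47% of the 32851 windows of all genes, and a MEF2 site in 1, that of Casq2 (bases 69 to 60), against 2.92%. GATA sites lay in the windows of Tnnt2, Nppa, Pln and Myl7 (4 of 10, against 16.6%), with that of Nppa at bases 122 to 117 and that of Myl7 at bases 42 to 37. TATAAA, searched on the gene's strand only, lay in those of Nppa (bases 9 to 4) and Pln (2 of 10, against 7.59%). The other motifs searched were CATTCC in 3 windows (12.6% of all), CANNTG in 8 (66.2%) and AGGTGT in 2 (11.8%). All motifs but TATAAA were searched on both strands, and no 2 of the positions just given overlap. A match describes letters and not binding.

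Myh6 (chromosome 14, 54941921 to 54968017, GRCm38.p6) encodes the alpha myosin heavy chain, the main cardiac motor of the adult mouse. It was read at 8.19, 4.88, 0.0888 and 0 CPM in DKO 1 to DKO 4, against 1.34, 116 and 481 CPM in ApoE 1 to ApoE 3. Its levels fell into 3 tiers: ApoE 2 and ApoE 3 were high, DKO 1, DKO 2 and ApoE 1 were low but above the floor, and DKO 3 and DKO 4 held 2 and 0 counts. The groups overlapped, because ApoE 1 lay below DKO 1 and DKO 2. In bulk tissue, fewer cells of a type and less RNA per cell cannot be told apart.

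The atrial light chain genes behaved alike at the high end and differently at the low end. Myl7, the atrial regulatory light chain (chromosome 11, 5896637 to 5898782), was read at 1.20, 1.03, 0.0444 and 0 CPM in DKO 1 to DKO 4, against 0, 29.0 and 112 CPM in ApoE 1 to ApoE 3. ApoE 1 and DKO 4 had no Myl7 count and DKO 3 had 1, so the groups overlapped at the floor. Myl4, the atrial essential light chain (chromosome 11, 104546017 to 104587215), was read at 5.84, 6.98, 4.44 and 7.16 CPM in DKO 1 to DKO 4, against 5.85, 50.3 and 180.2 CPM in ApoE 1 to ApoE 3. Unlike Myl7, it was present in every library, and ApoE 1 was level with DKO 1.

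Thin filament genes were likewise read everywhere. Actc1, cardiac alpha actin (chromosome 2, 114047282 to 114052875), was read at 6.75, 11.6, 7.37 and 28.4 CPM in DKO 1 to DKO 4, against 19.7, 68.0 and 221 CPM in ApoE 1 to ApoE 3. DKO 4 lay above ApoE 1, so the groups overlapped. Tnnt2, the cardiac troponin that ties the complex to tropomyosin (chromosome 1, 135836315 to 135852268), was read at 10.5, 11.3, 7.02 and 9.25 CPM in DKO 1 to DKO 4, against 15.1, 71.6 and 228 CPM in ApoE 1 to ApoE 3. It was the 1 gene of the 9 tested whose groups did not overlap, where 9.24% of all genes tested were lower and 7.08% higher in DKO without overlap. Tnni3, the inhibitory cardiac troponin (chromosome 7, 4518305 to 4522718), was read at 5.07, 4.45, 2.44 and 4.35 CPM in DKO 1 to DKO 4, against 3.37, 26.0 and 96.1 CPM in ApoE 1 to ApoE 3. ApoE 1 lay inside the DKO range.

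Nppa, the precursor of atrial natriuretic peptide (chromosome 4, 148000722 to 148002074), was read almost only in 2 libraries. It had 0, 2, 0 and 0 counts in DKO 1 to DKO 4, against 0, 221 and 367 counts in ApoE 1 to ApoE 3, or 10.2 CPM in ApoE 2 and 20.02 CPM in ApoE 3. It was too sparse outside those libraries to pass the filter on low counts, so it has no fold change from the fit. Pooled over each group, 2 counts in DKO stood against 588 in ApoE-/-, all of them from ApoE 2 and ApoE 3. ApoE 1 held 0 counts, as did DKO 1, DKO 3 and DKO 4, so no ratio between the groups is given.

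The calcium genes split in the same way as the contractile genes. Sln encodes sarcolipin, a small inhibitor of the calcium pump that is typical of atrial muscle (chromosome 9, 53850251 to 53853849). It was read at 0.766, 0.844, 0 and 0 CPM in DKO 1 to DKO 4, against 0.0992, 14.2 and 49.6 CPM in ApoE 1 to ApoE 3. DKO 1 and DKO 2 held 16 and 18 counts, while DKO 3 and DKO 4 held none and ApoE 1 held 2. Pln encodes phospholamban, the pump inhibitor of heart and smooth muscle (chromosome 10, 53337686 to 53345999). It was read at 3.02, 4.45, 3.77 and 7.21 CPM in DKO 1 to DKO 4, against 6.40, 19.6 and 51.3 CPM in ApoE 1 to ApoE 3. Casq2 encodes calsequestrin 2, the calcium store protein of the sarcoplasmic reticulum (chromosome 3, 102086415 to 102146514). It was read at 2.73, 2.20, 2.66 and 2.76 CPM in DKO 1 to DKO 4, against 2.28, 8.73 and 25.1 CPM in ApoE 1 to ApoE 3. Casq2 was the most even of the 10 outside ApoE 2 and ApoE 3, and for Pln and Casq2 ApoE 1 lay inside the DKO range.

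**Figure D1:**
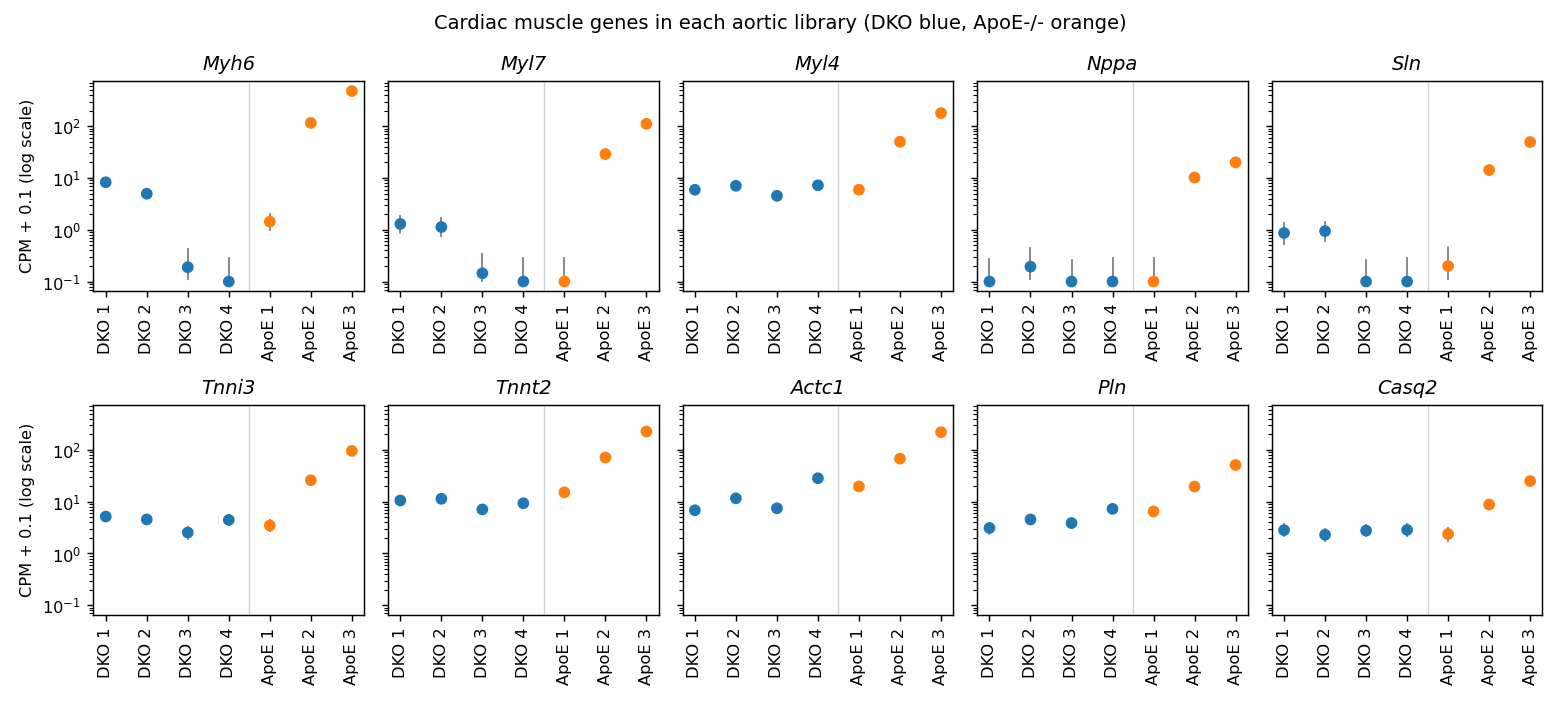
Level of each of the 10 genes in each library, as CPM + 0.1 on a log axis, with DKO libraries left (blue) and ApoE-/- libraries right (orange); grey bars are 95% exact Poisson intervals. ApoE 2 and ApoE 3 were highest for all 10 genes, and Myh6, Myl7, Nppa and Sln reached 0 counts in at least 1 DKO library while the other 6 did not.

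Per length, the order of the genes was close to the same in the libraries where they were high. In ApoE 3 the FPKM levels were 129 for Myl7, 109 for Sln, 109 for Actc1, 104 for Myl4, 66.1 for Tnnt2, 42.8 for Tnni3, 34.7 for Myh6, 19.8 for both Pln and Nppa, and 6.22 for Casq2. In ApoE 2 they were 38.1 for both Sln and Myl7, 37.6 for Actc1, 30.5 for Myl4, 22.3 for Tnnt2, 12.2 for Tnni3, 11.2 for Nppa, 9.22 for Myh6, 8.52 for Pln and 2.42 for Casq2. Sln, Myl7, Actc1 and Myl4 were thus near each other at the top in both, with Sln and Myl7 in swapped order, and Nppa ranked above Myh6 in ApoE 2 and below it in ApoE 3. The 10 genes summed to 18.1, 21.7, 11.5 and 26.1 FPKM in DKO 1 to DKO 4, against 21.5, 210.03 and 640.3 FPKM in ApoE 1 to ApoE 3. Actc1 held 57.1% of that sum in DKO 4 and 47.5% in ApoE 1, but 17.9% in ApoE 2 and 17.0% in ApoE 3, where Myl7 held 18.1% and 20.2%.

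The excess of ApoE 3 over ApoE 2, 2 libraries of the same group, was not the same for each gene. The ratio of CPM in ApoE 3 to CPM in ApoE 2 was 4.14 for Myh6 (95% exact binomial interval 3.96 to 4.33), 3.85 for Myl7 (3.52 to 4.21), 3.70 for Tnni3 (3.36 to 4.07), 3.58 for Myl4 (3.35 to 3.84) and 3.502 for Sln (3.07 to 3.998). It was 3.25 for Actc1 (3.06 to 3.45), 3.18 for Tnnt2 (3.002 to 3.37), 2.87 for Casq2 (2.42 to 3.42) and 2.62 for Pln (2.34 to 2.95). Nppa had the lowest ratio, 1.97 (1.66 to 2.34), and its interval overlapped that of Pln but none of the other 8. The median over all 14435 tested genes with at least 20 counts in the 2 libraries was 1.012. These intervals cover counting error only, and reads copied by PCR are not independent molecules.

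**Figure D2:**
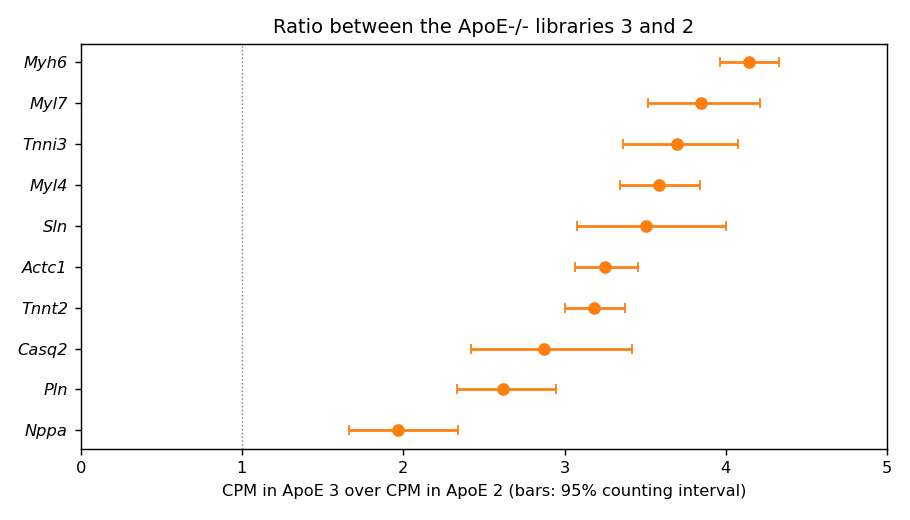
Ratio of CPM in ApoE 3 to CPM in ApoE 2 for each of the 10 genes, on a linear axis from 0, with 95% exact binomial intervals; the dotted line is a ratio of 1. Myh6 was highest at 4.14 and Nppa lowest at 1.97.

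Set against Myh6 within a library, Myl7 and Sln took shares of the same order in DKO 1 and DKO 2 as in ApoE 2 and ApoE 3, and Nppa a smaller one in DKO 1. Of the counts of Myl7 and Myh6 together, Myl7 took 12.8% in DKO 1 (95% exact binomial interval 8.43 to 18.3) and 17.5% in DKO 2 (11.3 to 25.2), against 19.99% in ApoE 2 (18.6 to 21.4) and 18.8% in ApoE 3 (18.1 to 19.6), so the interval of DKO 1 lay below that of ApoE 2 and overlapped that of ApoE 3. For Sln and Myh6 together, Sln took 8.56% in DKO 1 (4.97 to 13.5) and 14.8% in DKO 2 (8.98 to 22.3), against 10.9% in ApoE 2 (9.75 to 12.1) and 9.35% in ApoE 3 (8.78 to 9.94). For Nppa and Myh6 together, Nppa took 0 of 171 counts in DKO 1, which allows up to 1.75%, and 1.89% in DKO 2 (0.229 to 6.65), against 8.05% in ApoE 2 (7.06 to 9.13) and 3.997% in ApoE 3 (3.61 to 4.42). The Nppa share in DKO 1 thus lay below both of these ApoE-/- libraries beyond counting error (exact upper bound 2.13%), that in DKO 2 lay below ApoE 2, and ApoE 2 and ApoE 3 also differed from each other. By contrast Actc1 took 45.2% and 70.4% of its sum with Myh6 in DKO 1 and DKO 2, against 36.9% and 31.5% in ApoE 2 and ApoE 3.

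The 6 genes read in every library were set beside smooth muscle genes, a comparison chosen after the values were seen. Actc1 came to 0.224%, 0.207%, 0.124% and 0.241% of the CPM of Acta2, smooth muscle alpha actin, in DKO 1 to DKO 4, against 0.214%, 1.11% and 2.73% in ApoE 1 to ApoE 3. Apart from ApoE 2 and ApoE 3 the ratio thus lay between 0.124% and 0.241%. Like Actc1 in CPM, Acta2 was lowest in DKO 1 (3016 CPM) and highest in DKO 4 (11779 CPM) among the DKO libraries. Pln came to 0.170%, 0.172%, 0.128% and 0.118% of the CPM of Myh11 in DKO 1 to DKO 4, against 0.133%, 0.609% and 1.33% in ApoE 1 to ApoE 3. Tnnt2 did not hold to such a ratio, at 0.590%, 0.436%, 0.237% and 0.152% of Myh11 in DKO 1 to DKO 4, against 0.315%, 2.23% and 5.90% in ApoE 1 to ApoE 3. Nor did the other 3, whose ratio to Myh11 outside ApoE 2 and ApoE 3 ran between 0.117% and 0.328% for Myl4, between 0.0702% and 0.285% for Tnni3 and between 0.0453% and 0.153% for Casq2. Actc1 and Acta2 encode nearly identical proteins. How any reads that match both genes were counted is not given, and the part of such reads in the low Actc1 values was not tested.

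All 9 genes that passed the filter had negative log2 fold changes, DKO over ApoE-/-, and these rested on ApoE 2 and ApoE 3. The fold changes were -6.35 for Myl7 (SE 1.81), -5.92 for Myh6 (SE 1.83), -5.70 for Sln (SE 1.73), -3.69 for Myl4 (SE 0.93), -3.46 for Tnnt2 (SE 0.77), -3.36 for Tnni3 (SE 0.92), -2.93 for Actc1 (SE 0.84), -2.48 for Pln (SE 0.64) and -2.21 for Casq2 (SE 0.67). As means, Myh6 was at 3.29 ± 3.98 CPM in DKO (SD, n = 4) and 199 ± 250.4 CPM in ApoE-/- (SD, n = 3), while the Tnnt2 mean was 9.51 ± 1.87 CPM in the DKO libraries, against 105 ± 110.2 CPM in the ApoE-/- libraries. The SD in the ApoE-/- group was as large as its mean or larger for both. By edgeR's quasi-likelihood test 0 of the 9 passed an adjusted p of 0.05 in either direction, where 0.0274% of all genes passed as lower and 0% as higher. At an unadjusted p under 0.05, 9 of 9 were lower and 0 higher by edgeR (background 11.8% and 8%). At an adjusted p of 0.05, DESeq2's Wald test called 6 of 9 lower and 0 higher (background 4.66% and 3.16%). The limma voom fit used sample weights, 2.43 for ApoE 1, 0.675 for ApoE 2 and 0.673 for ApoE 3. At the same threshold limma voom called 0 of 9 (background 10% lower and 6.17% higher). Since the genes were picked on this contrast, nothing is read from these counts.

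Leaving libraries out changed the size of the fold changes and, for some of the genes, the sign of the estimate. Without ApoE 3 the log2 fold change was -4.66 for Myl7, -4.16 for Myh6, -2.20 for Myl4, -2.19 for Tnnt2 and -1.09 for Casq2. Without ApoE 2 and ApoE 3, a setting chosen after the data were seen that leaves 1 ApoE-/- library, assumed to vary like the DKO libraries, it was 1.29 for Myh6 (SE 2.70), 1.96 for Sln (SE 2.68), 0.27 for Tnni3 (SE 0.48), 0.18 for Casq2 (SE 0.37) and 0.06 for Myl4 (SE 0.36). These positive values were each smaller than their SE. The sign stayed negative at -0.67 for Tnnt2 (SE 0.29), -0.55 for Actc1 (SE 0.81) and -0.47 for Pln (SE 0.51). For 8 of the 9 genes that setting has a fold change to compare, since the ApoE-/- library it keeps had no Myl7 count.

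**Figure D3:**
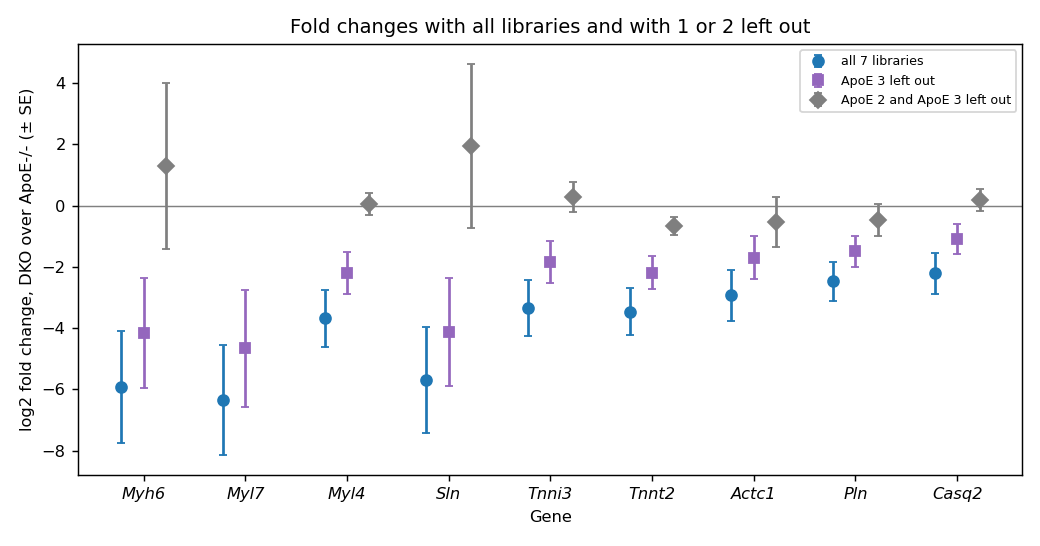
Log2 fold change, DKO over ApoE-/-, of the 9 genes that passed the low-count filter, with standard errors, from all 7 libraries (circles), without ApoE 3 (squares) and without ApoE 2 and ApoE 3 (diamonds; Myl7 not drawn because ApoE 1 had no count). The diamonds lie between -0.67 and 1.96, where the circles lie between -6.35 and -2.21.

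In ApoE 2 and ApoE 3 the atrial light chain genes and the alpha heavy chain gene far exceeded their ventricular or alternative paralogs. Myl2, the ventricular regulatory light chain, took 0.158% of its sum with Myl7 in ApoE 2 (1 count, 95% exact binomial interval 0.0040 to 0.878) and 1.16% in ApoE 3 (24 counts, 0.745 to 1.72). Myl3, the ventricular and slow muscle essential light chain, was at 1.23 FPKM beside 30.5 FPKM for Myl4 in ApoE 2 and at 2.97 FPKM beside 104 FPKM for Myl4 in ApoE 3. Myh7, the beta heavy chain next to Myh6 on the chromosome, had 5 counts beside 2526 of Myh6 in ApoE 2 and 54 beside 8815 in ApoE 3. Nppb, the brain natriuretic peptide gene that lies 13517 bases from Nppa, had 7 counts in ApoE 2 and 0 in ApoE 3, and 0 in each of the other 5 libraries. In DKO 1, Myh7 took 5.0% of its sum with Myh6 (9 counts, 2.31 to 9.28), above ApoE 2 (0.198%, 0.064 to 0.460) and ApoE 3 (0.609%, 0.458 to 0.794). The Myh7 share was also above both in DKO 3 (2 of 4 counts, 6.76 to 93.2) and DKO 4 (2 of 2 counts, 15.8 to 100). That was not so in DKO 2 (1 of 105 counts, 0.0241 to 5.19) or ApoE 1 (0 of 27 counts). Skeletal muscle markers summed to 115 CPM in DKO 1, the highest of the DKO libraries, and the tissue behind its Myh7 counts was not tested.

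**Figure D4:**
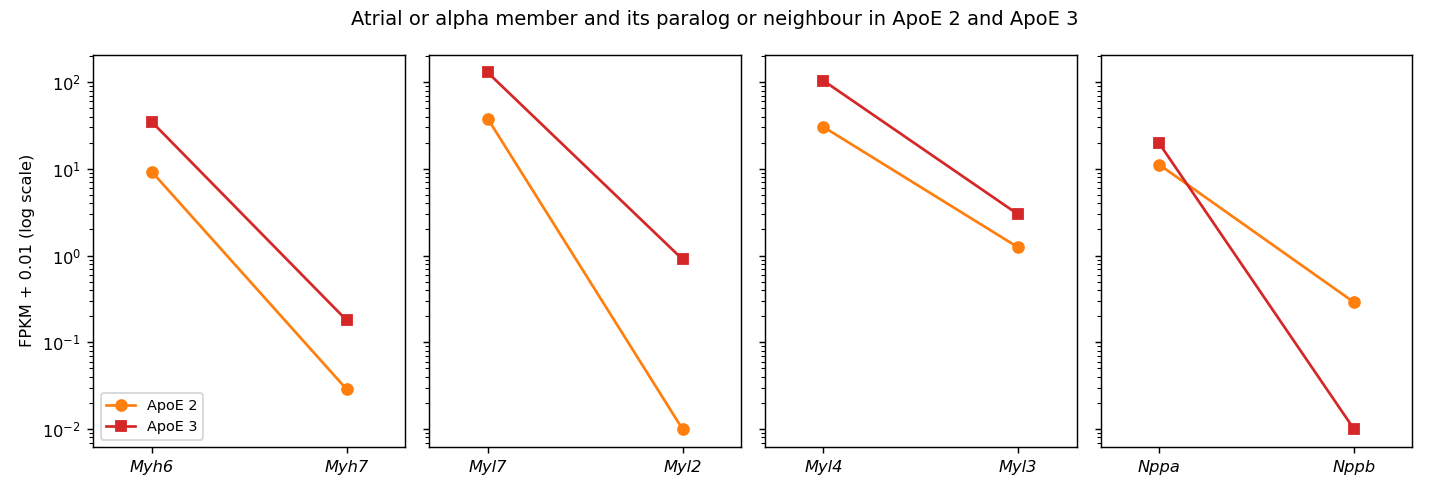
FPKM + 0.01 on a log axis of 4 of the genes and of a paralog or neighbour, in ApoE 2 (circles) and ApoE 3 (squares); lines join the 2 genes of a pair within a library. In every pair the atrial or alpha form was the higher, for example Myl4 at 104 FPKM and Myl3 at 2.97 FPKM in ApoE 3.

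Other atrial genes were mixed. Of 11, 9 were tested and 0 passed in either direction by edgeR (2 lower at an unadjusted p under 0.05, 0 by DESeq2 and 1 lower by limma voom; median log2 fold change -0.20, against -0.02 for all genes tested). Those with the highest levels, Pam, an enzyme that amidates peptides, Nr2f2, a transcription factor of atria and veins, and the connexin gene Gja5, are also read in vessels, and Pam ran between 856 and 1529 CPM over the 7 libraries. Kcnj3 and Kcnj5 encode the channel that acetylcholine opens in atria and were singled out after their values were seen. Kcnj5 was at 0.383, 0.0469, 0 and 0 CPM in DKO 1 to DKO 4, against 0, 1.47 and 4.47 CPM in ApoE 1 to ApoE 3. Kcnj3 was at 0.0958, 3.66, 0.400 and 0.102 CPM in DKO 1 to DKO 4, against 0.843, 4.87 and 6.00 CPM in ApoE 1 to ApoE 3, so DKO 2 also held it. The CPM ratio of ApoE 3 to ApoE 2 was 3.04 for Kcnj5 and 4.09 for Sbk3. It was 1.29 for Pam, 1.23 for Kcnj3, 1.22 for Gja5, 1.21 for Kcna5 and 1.08 for Sbk2. Below 1 were Nr2f1 at 0.708 (0.565 to 0.883) and Nr2f2 at 0.665 (0.608 to 0.727). Sbk3, Kcna5, Sbk2 and Nr2f1 were also singled out after their values were seen. Bmp10, a growth factor of the atrial wall, had no count in any library.

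Other sarcomere genes ranged from near 0 to as large a difference as the cardiac genes. Of 24, 23 were tested, 23 had negative fold changes and 0 passed by edgeR (12 lower at an unadjusted p under 0.05, 7 lower by DESeq2 and 1 by limma voom). Their median was -1.18. Tpm1, Myom1, Des and Ldb3, the 4 highest, had log2 fold changes of -0.13 (SE 0.31), -0.25 (SE 0.40), -0.44 (SE 0.47) and -0.36 (SE 0.35), and each was higher in DKO 4 than in ApoE 3. Mybpc3, cardiac myosin binding protein C, was at 1.005, 0.703, 0.755 and 0.358 CPM in DKO 1 to DKO 4, against 0.347, 11.1 and 47.8 CPM in ApoE 1 to ApoE 3. Tnnc1, troponin C of heart and slow muscle, was at 1.05, 1.22, 0.355 and 0.716 CPM in DKO 1 to DKO 4, against 0.843, 8.04 and 37.04 CPM in ApoE 1 to ApoE 3. Both were highest in ApoE 3 and next highest in ApoE 2. ApoE 1 lay below all 4 DKO libraries for Mybpc3 and inside their range for Tnnc1.

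Other calcium handling genes were mixed. Of 14 other calcium handling genes, 13 were tested and 0 passed by edgeR (median -0.03; 1 higher and 2 lower at an unadjusted p under 0.05; 1 higher and 1 lower by DESeq2; 1 higher by limma voom). Atp2a2, the pump that phospholamban and sarcolipin restrain, was at 369.9, 457, 454 and 601 CPM in DKO 1 to DKO 4, against 432, 448 and 705 CPM in ApoE 1 to ApoE 3. The CPM ratio of ApoE 3 to ApoE 2 was 1.57 for Atp2a2 (1.53 to 1.62) and 1.23 for the release channel gene Ryr2 (1.12 to 1.36; singled out after its values were seen), below those of Pln and Casq2. The same ratio was 5.34 for the triadin gene Trdn (3.08 to 9.84), 2.98 for Hrc (2.53 to 3.51), 2.77 for Srl (2.40 to 3.20) and 2.395 for Popdc2 (2.03 to 2.83), also singled out after their values were seen, and the intervals of Hrc, Srl and Popdc2 overlapped that of Pln while that of Trdn lay above it. Trdn had the lowest log2 fold change of the list, -2.36 (SE 1.08), and it was at 0.814, 0.0938, 0.178 and 0.153 CPM in DKO 1 to DKO 4, against 0.198, 0.735 and 3.93 CPM in ApoE 1 to ApoE 3. Jph2, Asph and Cacna2d1, the others among the 4 highest, had log2 fold changes of -0.03 (SE 0.39), 0.18 (SE 0.12) and 0.21 (SE 0.11).

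Cardiac transcription factor genes did not share 1 order of the libraries. Of 15 transcription factor genes 14 were tested and 0 passed by edgeR (median -0.08; 2 higher and 1 lower at an unadjusted p under 0.05; 1 higher by DESeq2; 0 by limma voom), and the 4 highest, Mef2a, Srf, Mef2c and Gata6, were read in every library, Mef2a between 120.4 and 168 CPM. Further factors of the heart were singled out after their values were seen. Tbx5, a factor of atria and forelimb, was at 0.958, 0.938, 1.69 and 0.716 CPM in DKO 1 to DKO 4, against 1.19, 2.30 and 6.11 CPM in ApoE 1 to ApoE 3. Gata4 was at 0.0958, 0.234, 0.488 and 0.153 CPM in DKO 1 to DKO 4, against 0, 0.873 and 1.96 CPM in ApoE 1 to ApoE 3. Nkx2-5 was at 0.0479, 0, 0 and 0 CPM in DKO 1 to DKO 4, against 0, 0.184 and 0.382 CPM in ApoE 1 to ApoE 3, from at most 7 counts. Others of the list went the other way between those libraries: the CPM ratio of ApoE 3 to ApoE 2 was 0.050 for Hand2 (0.037 to 0.066), 0.200 for Isl1 (0.143 to 0.274), 0.275 for Shox2 (0.181 to 0.407), 0.277 for Prox1 (0.195 to 0.384) and 0.433 for Tbx20 (0.346 to 0.539). Hand2, a factor of heart and of sympathetic neurons, was at 5.79, 65.6, 10.7 and 8.95 CPM in DKO 1 to DKO 4, against 32.3, 54.5 and 2.73 CPM in ApoE 1 to ApoE 3. Ion channel and junction genes (15 of 19 tested, median -0.04; 1 higher and 1 lower at an unadjusted p under 0.05) also had 0 passing by edgeR, with 1 higher by DESeq2 and 2 higher by limma voom. The natriuretic peptide pathway (9 of 10 tested, median -0.15; 1 higher and 2 lower at an unadjusted p under 0.05) likewise had 0, with 1 lower by DESeq2 and 1 higher by limma voom. The receptor gene Npr1 ran between 134 and 324 CPM over the 7 libraries, whereas Corin, the protease that activates the Nppa product, was at 0.479, 0.281, 0.222 and 0.665 CPM in DKO 1 to DKO 4, against 0.545, 2.02 and 6.44 CPM in ApoE 1 to ApoE 3.

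Muscle energy genes leaned the same way. Of 16, 16 were tested, 16 had negative fold changes (median -1.47), 13 were lower at an unadjusted p under 0.05 and 0 passed adjusted by edgeR, with 11 lower by DESeq2 and 8 by limma voom. Slc25a4, Cox8b, Cpt1b and Ldhb, the 4 highest, included Cox8b, a respiratory chain subunit of heart, muscle and brown fat. It was at 71.7, 51.7, 45.1 and 109 CPM in DKO 1 to DKO 4, against 169, 99.8 and 301 CPM in ApoE 1 to ApoE 3. ApoE 1 thus lay above ApoE 2 for Cox8b, the reverse of the cardiac genes. Mb, which encodes myoglobin, was highest in ApoE 3 and next highest in ApoE 2, as the cardiac genes were. It was at 8.86, 2.44, 3.24 and 0.767 CPM in DKO 1 to DKO 4, against 2.13, 38.7 and 135 CPM in ApoE 1 to ApoE 3.

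Sums of markers of other tissues put the libraries in other orders. Brown adipocyte markers (11 of 12 tested, median -1.15, 11 negative, 0 passing by edgeR, 7 lower at an unadjusted p under 0.05, 6 lower by DESeq2 and 7 by limma voom) summed to 569, 360, 330.2 and 649 CPM in DKO 1 to DKO 4, against 1094, 704 and 1858 CPM in ApoE 1 to ApoE 3. The 10 cardiac genes summed to 44.0, 47.8, 27.8 and 59.2 CPM in DKO 1 to DKO 4, against 54.1, 414 and 1464 CPM in ApoE 1 to ApoE 3. ApoE 1 had a higher brown adipocyte sum than ApoE 2 and a lower cardiac sum. The uncoupling protein gene Ucp1, Cidea, Dio2 and Prdm16 were the highest of that list, and Zic1, the lowest, had 1 count in all. White adipocyte markers (12 of 12 tested, median -1.02, 0 passing by edgeR, 12 lower at an unadjusted p under 0.05, 11 lower by DESeq2 and 10 by limma voom) summed to between 4684 and 7486 CPM in DKO, against 9584 to 13195 CPM in ApoE-/-. Oxidative phosphorylation genes (20 of 20 tested, median -0.86, 0 passing by edgeR, 20 lower at an unadjusted p under 0.05, 17 lower by DESeq2 and 20 by limma voom) summed to between 3366 and 4609 CPM in DKO, against 6105, 4887 and 8978 CPM in ApoE 1 to ApoE 3. The part of these tissues in the cardiac levels was not tested.

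Skeletal muscle markers shared ApoE 3 as their highest library with the cardiac genes, but not ApoE 2. They summed to 115, 31.9, 71.4 and 45.1 CPM in DKO 1 to DKO 4, against 59.6, 34.0 and 132 CPM in ApoE 1 to ApoE 3, with 18 of 21 tested, a median of -0.05 and 0 passing by edgeR (0 at an unadjusted p under 0.05, 0 by DESeq2, 0 by limma voom). ApoE 3 was highest and DKO 1 next, while ApoE 2, high in cardiac genes, was the lowest but for DKO 2. Acta1, skeletal alpha actin and likewise highest in ApoE 3, was at 17.3, 1.55, 9.59 and 3.53 CPM in DKO 1 to DKO 4, against 9.82, 1.84 and 25.04 CPM in ApoE 1 to ApoE 3. The skeletal regulator genes Myod1 and Myog had 0 to 3 counts and 0 counts. Of the list of ventricular and alternative paralogs (10 of 16 tested, median -0.20), 0 passed by edgeR, 0 at an unadjusted p under 0.05, and 0 by DESeq2 and limma voom. Besides those given above, Acta2, Actg2, Hey2, Casq1, Tnnt3, Tnni2, Tnnt1, Tnni1 and Atp2a1 had log2 fold changes between -0.80 for Tnnt1 (SE 0.46) and 0.77 for Tnni1 (SE 0.61), Myh7b did not pass the filter, and Irx4 had no count.

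Sympathetic and chromaffin markers (9 of 10 tested, median -0.36, 0 passing by edgeR, 0 at an unadjusted p under 0.05, 0 by DESeq2 and limma voom) summed to 22.5, 1376, 160.5 and 157.03 CPM in DKO 1 to DKO 4, against 553, 1189 and 6.60 CPM in ApoE 1 to ApoE 3. They were thus lowest in ApoE 3, where the cardiac genes were highest, and high in ApoE 2. Smooth muscle markers (15 of 15 tested, median -0.24, 0 passing by edgeR, 0 at an unadjusted p under 0.05, 0 by DESeq2 and limma voom) summed to 11930.2, 18782, 20368 and 40025 CPM in DKO 1 to DKO 4, against 32196, 21156 and 27204 CPM in ApoE 1 to ApoE 3. Mesothelial and epicardial markers (11 of 11 tested, median -0.47, 0 passing by edgeR and 1 lower at an unadjusted p under 0.05, 0 by DESeq2 and limma voom) summed to 53.9 to 62.3 CPM in DKO, against 56.5 to 69.4 CPM in ApoE-/-. Most of that sum was Tbx18. Upk3b, a mesothelial gene singled out after its values were seen, was at 1.48, 1.64, 0.533 and 0.665 CPM in DKO 1 to DKO 4, against 0.248, 4.23 and 3.71 CPM in ApoE 1 to ApoE 3. Lung and airway markers (3 of 9 tested, median -0.07, 0 passing by edgeR, with 1 lower at an unadjusted p under 0.05, by DESeq2 and by limma voom) summed to 8.95 to 10.8 CPM in DKO, against 13.01 to 23.8 CPM in ApoE-/-. Thymus and oesophagus markers (2 of 10 tested, median 0.58, 0 passing by edgeR, 0 at an unadjusted p under 0.05, 0 by DESeq2 and limma voom) were mainly Cd4 and Cd8a.

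**Figure D5:**
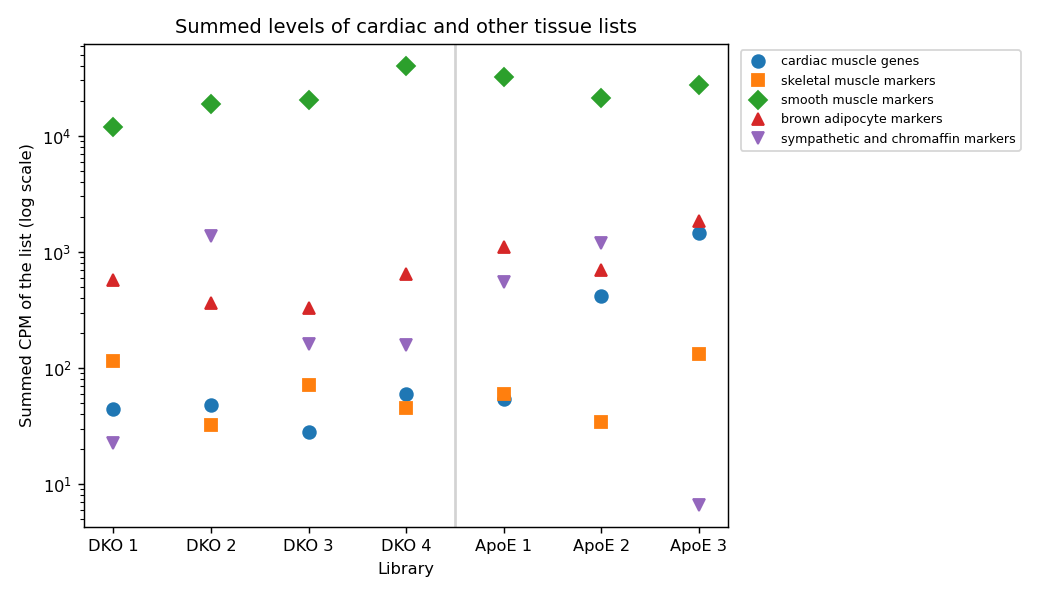
Summed CPM per library, on a log axis, of the 10 cardiac genes and of 4 marker lists, with DKO libraries left and ApoE-/- libraries right. The cardiac sum was 1464 CPM in ApoE 3 and 414 CPM in ApoE 2 against 27.8 to 59.2 CPM elsewhere, while the sympathetic sum was lowest in ApoE 3 at 6.60 CPM.

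The genes most like the 10 across libraries were mainly other muscle genes. Likeness was taken as Pearson's r of log2 CPM with the mean log2 CPM of the 10 over the 7 libraries, among 1607 other tested genes that spanned at least 2 on that scale, and it rests on ApoE 2 and ApoE 3. The 12 closest were Tnnc1 (0.99), Mylk3 (0.99), Mybpc3 (0.98), Fndc5 (0.97), Csrp3 (0.97), Shisa2 (0.95), Cox6a2 (0.95), Mb (0.94), Txlnb (0.94), Corin (0.93), Esrrg (0.93) and Ckmt2 (0.93). Mylk3 encodes the cardiac myosin light chain kinase, Csrp3 the muscle LIM protein, Cox6a2 and Ckmt2 the muscle forms of a respiratory subunit and of mitochondrial creatine kinase, and Esrrg a nuclear receptor of oxidative metabolism. Csrp3 was at 0.575, 0.797, 0.178 and 0.102 CPM in DKO 1 to DKO 4, against 0, 11.3 and 40.4 CPM in ApoE 1 to ApoE 3. Among the 10, the likeness of each gene to the mean of the other 9 ran between 0.85 for Actc1 and 0.98 for Tnni3.

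Neighbouring genes were checked because the strand setting of the counting is not given. Among the counted genes of RefSeq, Myh6 overlaps Cmtm5, Myl4 overlaps Cdc27 and the pseudogene Gm7020, and Pln overlaps Cep85l. Cmtm5 was at 0.862, 5.11, 1.29 and 3.32 CPM in DKO 1 to DKO 4, against 2.98, 7.72 and 5.35 CPM in ApoE 1 to ApoE 3. Cdc27 ran between 50.6 and 61.0 CPM in DKO, against 44.7 to 49.0 CPM in ApoE-/-, and Cep85l between 9.32 and 12.4 CPM in DKO, against 7.34 to 12.1 CPM in ApoE-/-. Gm7020 had 13, 20, 18 and 20 counts in DKO 1 to DKO 4, against 22, 4 and 17 counts in ApoE 1 to ApoE 3. ApoE 3 was the highest library for none of these neighbours, but for Cmtm5 ApoE 2 was highest and ApoE 3 next. The part of overlapping reads in the Myh6, Myl4 and Pln counts was not tested.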

How the data were processed

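Abdominal aorta RNA was made into 7 stranded mRNA libraries (TruSeq), per the labels' protocols. The submitters' processing notes name Trimmomatic, HISAT2, HTSeq, Cufflinks and DESeq and the build GRCm38.p6, with no versions or roles; for annotation, filters and strand setting, nothing is stated in the sources used here. The deposited counts per gene are whole numbers that the authors did not normalise, and the deposited FPKM values were scaled by the authors for gene length and depth. Each column carries a genotype (KO for DKO) and a number that match 1 sample title, and 27 symbols turned into dates were restored through gene identifiers.

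Counts were filtered with edgeR's filterByExpr (minimum count 10), which left 14609 of 21878 genes and 9 of the 10 cardiac genes, scaled by TMM and tested over all genes with edgeR's quasi-likelihood test (edgeR 4.0.16, limma 3.58.1, DESeq2 1.42.0, R 4.3.3; Benjamini-Hochberg, threshold 0.05, two-sided). The SE of a log2 fold change is its size divided by the root of the F statistic. CPM use the scaled library sizes and log2 CPM a prior count of 2. Intervals are exact at 95% and cover counting error only, and the floor is 3 counts per library. The labels do not say that libraries came from separate mice, so p-values measure the spread between these libraries.

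The cardiac genes and the gene lists were chosen with earlier results of these data known. Named genes were Nr4a1 and Apoe, the 10 cardiac genes, of each other list genes passing the test and up to 4 with the highest mean CPM, the ventricular and alternative paralogs, and the 12 genes most like the cardiac genes. Bmp10, Myod1, Myog, Zic1 and the genes marked in the text were picked with their values in view. The fitting code was tested on simulated data. Alternatives were DESeq2, RLE scaling, limma voom with sample weights, other count filters, a replicate block, leaving out single libraries, and limma fits to log2(FPKM + 1) and log2(FPKM + 0.1).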

Additional observations from a re-analysis of the deposited data

Results flagged for a closer look

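In the group of 4 DKO libraries, 44 genes and list sums were examined for a library far from the others, and 6 stood out. The rule flags about 1 in 20 where values are normally distributed and independent. Sparse counts, and sums that share genes with other items, are not, so the 6 are not set against chance. DKO 2 stood apart for Nppa at 0.0938 CPM, which is 2 counts where the others had none, a pattern that the rule always flags. DKO 1 stood apart for Myh7 at 0.431 CPM, from 9 counts. DKO 4 stood apart for Hey2, a transcription factor gene of ventricle and artery, at 53.9 CPM, for the sum of white adipocyte markers at 7486 CPM and for that of mesothelial and epicardial markers at 62.3 CPM. DKO 2 stood apart for the sum of sympathetic and chromaffin markers at 1376 CPM. Groups of 3 were not examined, so ApoE 2 and ApoE 3 could not stand out by this measure.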

How the results depend on the processing

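Every one of 142 fold changes of the cardiac genes under the 16 alternatives planned for them was negative, and 6 were called, all with DESeq2 (adjusted p over all of them 0.00245 to 0.796). Each of these alternatives kept ApoE 2, ApoE 3 or both, and the genes were picked on this contrast. The shared sign is therefore no support for a difference between the groups. Leaving out 1 library at a time gave -6.98 to -4.66 for Myl7, -6.89 to -4.16 for Myh6, -6.34 to -4.13 for Sln and -2.70 to -1.09 for Casq2. Without ApoE 2 and ApoE 3, a setting chosen after seeing the data, 6 signs turned, with 1.29 for Myh6, 6.58 for Myl7 (fitted against 1 library with no count, so no measure of size), 0.058 for Myl4, 1.96 for Sln, 0.27 for Tnni3 and 0.18 for Casq2. By construction that setting keeps 1 ApoE-/- library, which had low levels of these genes.

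Over all genes, edgeR called 0 higher and 4 lower. DESeq2 called 461 higher and 681 lower, and limma voom 902 and 1467. The FPKM fits with a minimum mean of 1 called 1 higher with either pseudocount, and the unfiltered FPKM fit called 0 lower. Leaving out 1 library gave 0 to 4 higher and 0 to 2 lower: ApoE 1, ApoE 3, DKO 3 or DKO 4 left 0 lower, ApoE 2 or DKO 2 left 1, and without DKO 1 there were 4 higher and 2 lower. Without ApoE 2 and ApoE 3, 0 were lower. Of the 200 genes tested on the companion lists, edgeR called 0 (5 higher and 74 lower at an unadjusted p under 0.05), DESeq2 3 higher and 55 lower, and limma voom 4 higher and 48 lower. DESeq2 called 6 of the 9 cardiac genes lower. The cause of these differences was not tested.

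Of the libraries with the same number, those numbered 2 deviated together (correlation 0.70), and those numbered 1 and 3 did not (-0.39 and 0.0036). Between libraries with different numbers the correlation ran from -0.73 (DKO 2 with ApoE 3) to 0.58 (DKO 1 with ApoE 3). As not every pair of the same number deviated together, the numbers were not taken to pair the samples. The fit with the replicate block called 0 genes lower. Depth limits Myl7, Nppa and Sln in DKO 3, DKO 4 and ApoE 1, Myh6 in DKO 3 and DKO 4, and Nppa also in DKO 1 and DKO 2, all at 0 to 2 counts.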
